A study of Mus musculus with 24 samples.

Results

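The genes described here make the coat of the lipid droplet and release the fat stored in it. They are 10 genes chosen by their symbols among the 24421 gene symbols counted in adipose tissue: the perilipins Plin1, Plin2, Plin3, Plin4 and Plin5, the droplet protein gene Cidec, the lipase inhibitor gene G0s2, the lipase activator gene Abhd5, and the lipase genes Pnpla2 and Lipe. All 10 had counts in each of the 24 libraries and passed the filter on low counts in every comparison. The tissue came from C57BL/6 mice at 2 months of age, wild type (WT) or with a point mutation of STAT5B, which carries signals of growth hormone and other cytokines to DNA. Both mutations replace the same tyrosine, Y665F with phenylalanine and Y665H with histidine. There were 4 libraries each of WT males, Y665F males, Y665H males, WT females, Y665F females and Y665H females. The labels name no fat depot, do not say whether the mutant mice carried 1 or both mutant alleles, and number the libraries without saying that each is a separate mouse. P-values therefore measure the spread between these libraries.

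A fat cell keeps its triglyceride in a droplet bounded by a single layer of phospholipid and coated with perilipins. Perilipin 1 is the main coat protein of white fat cells and, at rest, holds ABHD5 (also called CGI-58) away from the lipase ATGL, which Pnpla2 encodes. When adrenergic signals phosphorylate perilipin 1, ABHD5 is set free and activates ATGL, which takes the first fatty acid from triglyceride, and hormone-sensitive lipase, encoded by Lipe, takes the next. G0S2 binds and inhibits ATGL, and CIDEC, found where droplets touch, lets small droplets merge into the large one of a white fat cell. Perilipin 2 and perilipin 3 coat droplets in most cell types, perilipin 4 coats nascent droplets in fat cells, and perilipin 5 is typical of tissues that burn much fat, such as heart, muscle and brown fat, where it lies between droplets and mitochondria.

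The promoters of the 3 genes with a called difference are shown because the mutated protein binds DNA. They are the 250 bases before an annotated start, 5′ to 3′ on the strand of the gene, from RefSeq on the mouse build GRCm38.p6. Capitals mark the short motifs searched. The Plin5 bases lie at chr17:56117549-56117798 on the minus strand, the Abhd5 bases at chr9:122351366-122351615 on the plus strand, and the Plin2 bases at chr4:86670060-86670309 on the minus strand.
Plin5: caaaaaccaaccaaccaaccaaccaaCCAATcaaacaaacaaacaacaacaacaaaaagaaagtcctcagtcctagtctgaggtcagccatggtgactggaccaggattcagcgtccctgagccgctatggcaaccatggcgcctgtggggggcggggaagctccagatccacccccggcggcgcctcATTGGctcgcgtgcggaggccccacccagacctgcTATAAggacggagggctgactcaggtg
Abhd5: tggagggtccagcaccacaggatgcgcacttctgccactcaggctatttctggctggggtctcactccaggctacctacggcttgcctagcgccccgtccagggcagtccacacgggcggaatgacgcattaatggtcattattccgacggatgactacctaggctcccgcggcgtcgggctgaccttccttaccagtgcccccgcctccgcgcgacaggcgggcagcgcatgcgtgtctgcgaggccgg
Plin2: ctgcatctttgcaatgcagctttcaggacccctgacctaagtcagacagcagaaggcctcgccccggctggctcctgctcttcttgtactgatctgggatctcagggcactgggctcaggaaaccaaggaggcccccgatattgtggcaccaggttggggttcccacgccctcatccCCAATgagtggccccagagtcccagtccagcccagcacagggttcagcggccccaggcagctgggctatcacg
In this Plin5 promoter the capitals are a TATAA box, starting at -27 from the start site, and CCAAT boxes, one of them on the opposite strand and so printed as its complement. Another annotated start of Plin5, with upstream bases at chr17:56117299-56117548, had no searched motif in its window. The Plin2 capitals are a CCAAT box starting at -73, and no searched motif was in the Abhd5 window. The search covered 13 windows of 300 bases (250 before and 50 after each start) of the 10 genes. TTCNNNGAA, the palindrome that STAT5 dimers are known to bind, was in 1 window, against 8.30% of 32851 mouse promoter windows of that length.

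That match was in Lipe, at chr7:25395973-25396002 on the minus strand, starting at -3, and its 9 bases are in capitals. The window of another Lipe start, with upstream bases at chr7:25390113-25390362, had no searched motif.
Lipe: gggcgggccaggTTCAAGGAAaggtgaatg
A PPAR-type direct repeat, 2 copies of AGGNCA with 1 base between them, searched on both strands like TTCNNNGAA, was in 0 of the 13 windows (background 0.381%). CCAAT on either strand was in 4 windows, those of Plin2, Plin3, Plin4 and Plin5 (background 37.4%), and TATAA on the gene's strand in 2, those of Plin4 and Plin5 (background 17.5%). No motif contains another, and a match describes the letters of this window only.

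In the GENCODE M21 annotation of the same build, Plin3, Plin4 and Plin5 lie on the minus strand of chromosome 17. Plin5 runs from 56111601 to 56117596, with Plin4 just beyond its end, from 56100591 to 56109803. Plin1 (79720218 to 79732903), Pnpla2 (141455198 to 141460743) and Lipe (25379527 to 25398710) are on chromosome 7, Plin2 on chromosome 4 (86648386 to 86670060), Cidec on chromosome 6 (113424634 to 113435760), and Abhd5 on chromosome 9 (122351608 to 122381524). Of the 10 genes, 4 overlap a gene on the opposite strand. G0s2 (chromosome 1, 193272161 to 193273217) lies wholly inside Lamb3, counted at 3.59 to 40.2 CPM (counts per 1000000 gene counts of the library), and Lipe wholly inside the antisense gene 4732471J01Rik, at 4.64 to 14.9 CPM. Abhd5 shares 950 bases with A730085K08Rik, at 0.128 to 1.59 CPM, and Plin4 shares 17 bases with Hdgfl2. The libraries were stranded, but the strand setting of the counting is not given in the sources used here, so reads of these partners may not have been kept apart.

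Depth ran from 20982647 to 41345247 gene counts per library. The lowest count of any of the 10 genes was 128, for Plin5. Of 11 adipocyte genes outside the set (such as Adipoq and Fabp4), 11 reached a mean of 1 CPM in every group. Libraries that stood apart were WT male 2, with the lowest adipocyte level (mean log2(CPM + 1) of the list 8.76, other libraries at least 9.47) and the highest epididymis level (10.21), and Y665F female 3, with an adipocyte level of 9.47 and an epithelium level of 5.61, the highest in females. Epididymis markers ran from 0.16 to 10.21 within WT males. Y665H females 1 and 2 had the highest thermogenic adipocyte levels, at 4.01 and 4.29, with the 22 others at no more than 3.20.

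Together the 10 genes made up 0.478% of the gene counts of a library in WT male 2 and 1.38% in WT female 1, the lowest and highest shares. Per kilobase of exon, which allows genes to be compared, Cidec led with 1076 CPM per kb, as a mean of all 24 libraries. It was followed by Pnpla2 (634.5), Plin4 (539.2) and Plin1 (498.2), the lipase that starts triglyceride breakdown and the 2 perilipins of fat cells. G0s2 (212.0) and Lipe (132.7) came next, then Plin2 (82.95). Abhd5 (21.5) and Plin3 (21.0) were alike, and Plin5 was lowest at 4.83 CPM per kb. The SD over the 24 libraries was 181 CPM per kb for Pnpla2, 146 for Plin4 and 114 for Plin1, so the order of these neighbours is within their spread. Among the coat genes, transcripts of Cidec, Plin4 and Plin1 were thus the most abundant, and those of Plin3 and Plin5 the least.

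**Figure D1:**
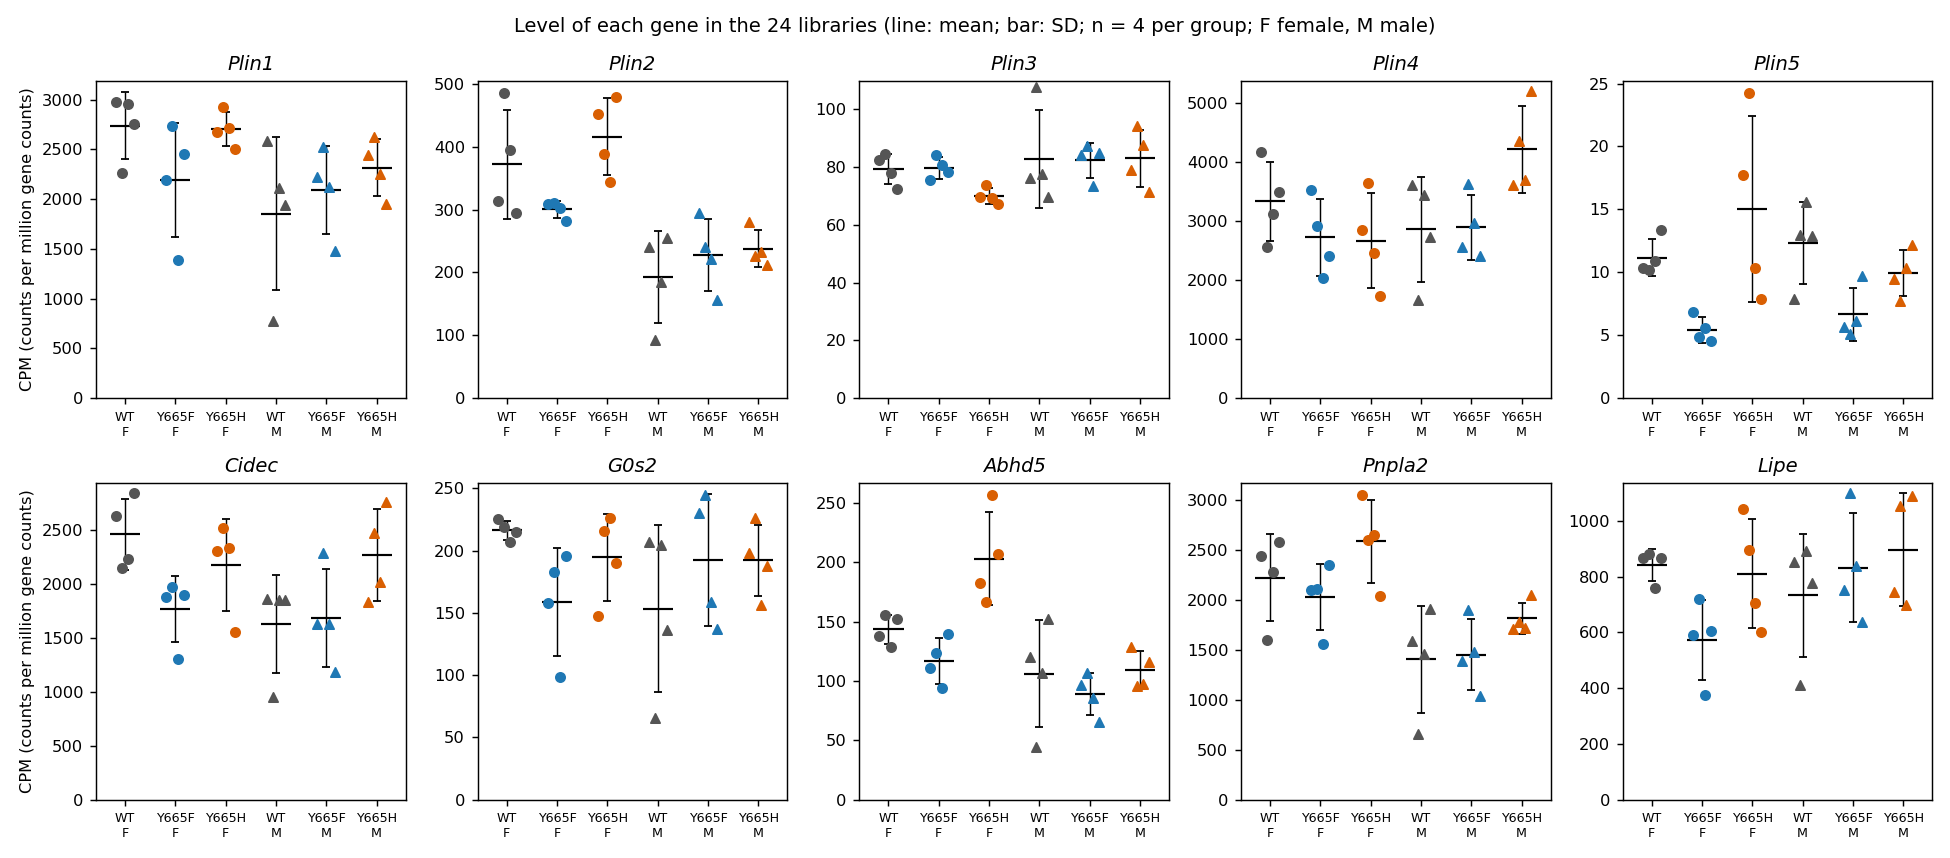
Level of each of the 10 genes in the 24 libraries (vertical axes: CPM, each starting at 0), with circles for females, triangles for males, lines for the mean and bars for the SD of 4 libraries. Plin5 is lowest in Y665F of both sexes, Abhd5 is highest in Y665H females, and 1 WT male library, number 2, is the lowest WT male for 8 of the genes.

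Against WT females, all 10 genes had lower fitted levels in Y665F females (Plin3 lay above 0 under scaling by library totals), and 1 of them, Plin5, passed the test. The log2 fold changes ran from -1.17 for Plin5 to -0.13 for Plin3, with a median of -0.44, against 0.02 over all genes tested. The 11 adipocyte genes outside the set were also all below 0, with a median of -0.35. In bulk tissue, fewer fat cells and less of these RNAs per fat cell cannot be told apart. Of all 15642 genes tested, 3.33% were called (edgeR quasi-likelihood test, adjusted p under 0.05). That share ran from 0.424% without Y665F female 1 to 4.75% without Y665F female 3.

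Plin5, the perilipin of fat-burning tissues, was at 10.3, 10.2, 10.9 and 13.3 CPM in WT females 1 to 4, whereas Y665F females 1 to 4 had 6.81, 4.85, 5.53 and 4.52 CPM. Every Y665F library was below every WT library. The mean fell from 11.2 ± 1.47 to 5.43 ± 1.02 CPM (SD, n = 4 each), which is -1.17 as log2 fold change (SE 0.16) with an edgeR adjusted p of 0.0150. The adipocyte genes ran from -0.93 to -0.28, and Plin5 was 0.82 further below 0 than their median, on the log2 scale. The call was lost without Y665F female 4 (edgeR adjusted p 0.0537), and it was also lost with the skeletal muscle markers as a covariate (-1.06, edgeR adjusted p 0.0931) or the thermogenic adipocyte markers (-0.93, edgeR adjusted p 0.369). With either of these covariates, 0 of all 15642 genes were called. The mean log2(CPM + 1) of the thermogenic list was 1.28 to 1.96 in Y665F and 2.48 to 3.20 in WT females. All 5 of its tested genes were below 0, and 3 were called lower, against 3.33% of all genes called. The mean of the muscle list was 1.41 to 2.34 in Y665F and 2.20 to 5.92 in WT females. All 13 of its genes were below 0 and 0 were called, though 12 had an edgeR unadjusted p under 0.05, against 26.3% of all genes. No gene of either list was at 0 in all libraries of WT or of Y665F females. Lists of other cells were higher in Y665F females: 6 of 7 T and NK cell genes were called higher (median 1.91) and 2 of 6 B cell genes (median 1.31). None of the 8 macrophage genes was called, though all lay above 0 (median 0.55), and none of the 9 epithelium genes, 8 of which lay above 0 (median 2.59). The part of these cells in the differences of the 10 genes was not tested.

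Cidec, G0s2 and Lipe also did not overlap between the groups, which with Plin5 makes 4 of 10, against 22.9% of all genes. None of these 3 passed the adjusted threshold. Lipe, hormone-sensitive lipase, was at 867.6, 879.4, 757.7 and 867.6 CPM in WT females, whereas Y665F females had 590.2, 720.0, 374.2 and 604.1 CPM. The log2 fold change was -0.69 (SE 0.20, edgeR adjusted p 0.0940), and it was called without Y665F female 3 (-0.52, edgeR adjusted p 0.0427). Cidec, of droplet fusion, had 2462 ± 330.1 CPM in WT and 1765 ± 306.1 CPM in Y665F females (SD, n = 4), and its fitted log2 difference was -0.61 (SE 0.18, edgeR adjusted p 0.0976).

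The ATGL inhibitor G0s2 was at 216.4 ± 7.64 CPM in WT and 158.8 ± 43.2 CPM in Y665F females, with a log2 difference of -0.57 (SE 0.20, edgeR adjusted p 0.131). Its activator Abhd5 had -0.43 (SE 0.14, edgeR adjusted p 0.106) and ATGL itself, Pnpla2, -0.26 (SE 0.20, edgeR adjusted p 0.428). Among the other coat genes, Plin1 had -0.45 (SE 0.23), Plin2 -0.44 (SE 0.16), Plin4 -0.42 (SE 0.23) and Plin3 -0.13 (SE 0.07), with edgeR adjusted p of 0.140 to 0.302. An unadjusted p under 0.05 was reached by 6 of the 10 genes, against 26.3% of all genes. Y665F female 3, the library low in adipocyte markers, was the lowest of its group for Plin1, Plin4, Cidec, G0s2, Abhd5, Pnpla2 and Lipe, but not for Plin2, Plin3 or Plin5. DESeq2 called 5 of the 10 in this comparison, Plin5, Cidec, G0s2, Abhd5 and Lipe, where it called 12% of all genes.

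**Figure D2:**
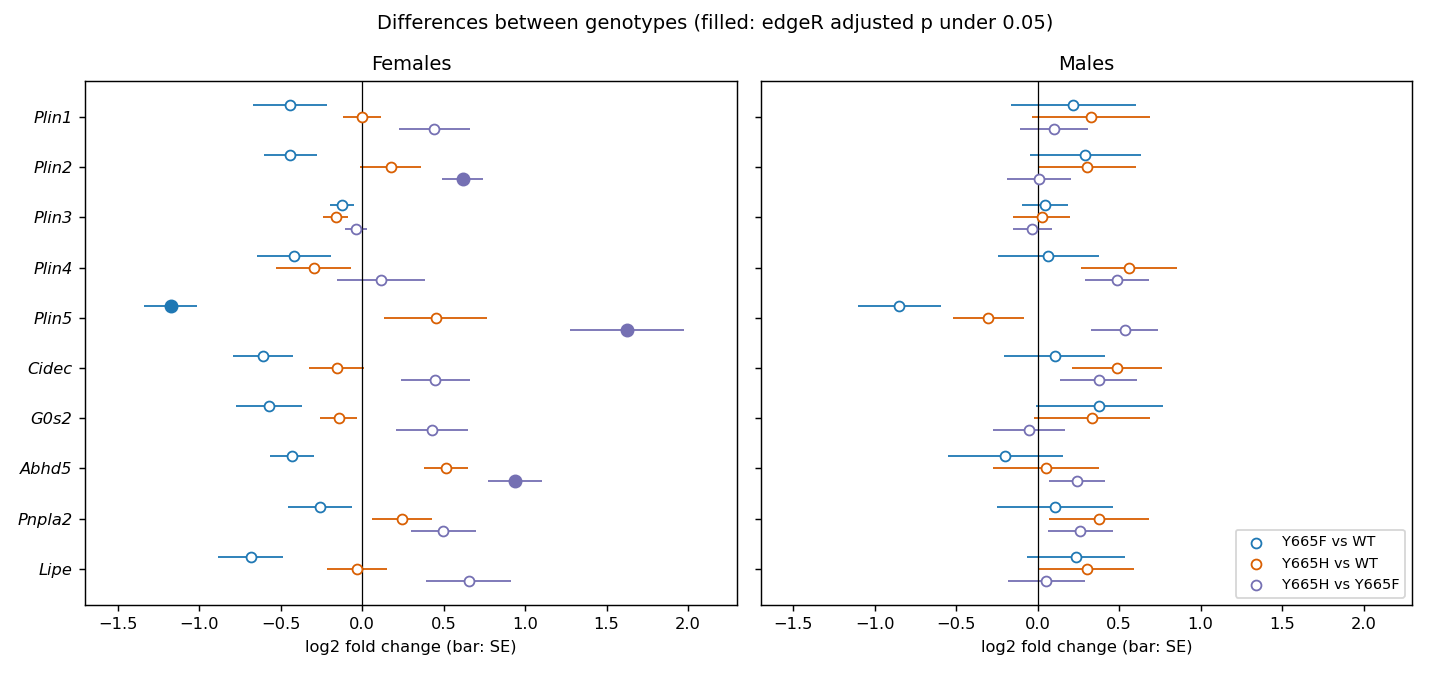
Log2 fold change of each gene (horizontal axis) in the 3 comparisons of genotypes, females left and males right, with bars for the SE and filled points for an edgeR adjusted p under 0.05. In females the Y665F against WT points all lie below 0 (under library totals Plin3 did not), Plin5 furthest at -1.17, and 3 points are filled in Y665H against Y665F.

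Between Y665H and WT females 0 of the 10 genes were called by edgeR, with 3.34% of 15469 genes called (from 0.128% without WT female 1 to 8.12% without WT female 3). Fitted differences were above 0 for 4 genes and below 0 for 6, with a median of -0.02. One gene of 10 had an unadjusted p under 0.05, the ATGL activator gene Abhd5, against 23.8% of all genes. It was at 138.3, 155.3, 128.9 and 152.4 CPM in WT and at 182.9, 166.8, 256.6 and 206.7 CPM in Y665H females 1 to 4. The lowest Y665H library was above the highest WT library, and Abhd5 was the 1 of 10 genes without overlap, against 13.3% of all genes. The log2 fold change was 0.51 (SE 0.13, edgeR adjusted p 0.0704). DESeq2 gave an adjusted p of 0.00603, where it called 11.5% of all genes. With the thermogenic markers as a covariate, edgeR gave 0.62 with an adjusted p of 0.0406, where 5.48% of all genes were called. Other alternatives had adjusted p of up to 0.313. In the 8 edgeR fits without 1 library, Abhd5 was called in 0, with edgeR adjusted p of 0.0534 to 0.176.

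Plin5 split the Y665H females. Libraries 1 and 2 had 17.7 and 24.2 CPM, above all WT females, and libraries 3 and 4 had 10.4 and 7.87 CPM, within or below the WT range. The log2 fold change was 0.45 (SE 0.32, edgeR adjusted p 0.410), and without Y665H females 1 and 2 it was -0.31 (edgeR adjusted p 0.304). Those 2 libraries are the ones with the high thermogenic adipocyte levels given above. Cidea, a relative of Cidec found in brown fat, followed the same split, at 29.5 and 43.8 CPM in libraries 1 and 2 and 8.74 and 11.0 CPM in libraries 3 and 4.

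The mutants were also set against each other. In females, 3 of the 10 genes were called, all higher in Y665H: Plin2, Plin5 and Abhd5. Of all 15493 genes, 17.4% were called (9.89% without Y665F female 1), 33.4% had an unadjusted p under 0.05, as did 5 of the 10 genes, and the count of 3 in 10 is not read as a result of the set. The log2 fold changes were above 0 for 9 of 10 genes (Plin4 lay below 0 under library totals, with the adipocyte, epithelium and thermogenic covariates, and without Y665H females 1 and 2), with a median of 0.47 against -0.03 over all genes tested, and 10 of the 11 adipocyte genes were above 0, with a median of 0.56.

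Abhd5 was higher in all 4 Y665H libraries than in any Y665F library, where it was at 110.7, 123.5, 94.0 and 139.6 CPM. Its mean was 203.2 ± 39.2 CPM in Y665H and 116.9 ± 19.3 CPM in Y665F (SD, n = 4), so that the fitted log2 difference was 0.94 (SE 0.17, edgeR adjusted p 0.00793). Abhd5 stayed called without Y665H females 1 and 2 (1.10, edgeR adjusted p 0.0295), with the thermogenic covariate (1.45, edgeR adjusted p 0.0474) and with the adipocyte covariate (0.66, edgeR adjusted p 0.0279), but not with the muscle covariate (0.77, edgeR adjusted p 0.0603).

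Plin2, the perilipin of most cell types, was at 451.8, 389.2, 343.6 and 478.9 CPM in Y665H and at 309.4, 310.4, 302.4 and 281.1 CPM in Y665F females. The Y665F libraries lay close together and below every Y665H library. The log2 fold change was 0.62 (SE 0.13, edgeR adjusted p 0.0137). It lost its call without Y665H females 1 and 2 (0.57, edgeR adjusted p 0.0680), with the thermogenic covariate (0.54, edgeR adjusted p 0.237) and in the fit over all 24 libraries (0.62, edgeR adjusted p 0.108).

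Plin5 had the largest difference of the set, 15.0 ± 7.41 CPM in Y665H against 5.43 ± 1.02 CPM in Y665F females, with a fitted log2 difference of 1.62 (SE 0.35, edgeR adjusted p 0.0167). All Y665H libraries were above all Y665F libraries, by the least for Y665H female 4. The difference was 0.87 without Y665H females 1 and 2 (edgeR adjusted p 0.0638), 0.21 with the thermogenic covariate (edgeR adjusted p 0.785) and 1.71 with the adipocyte covariate (edgeR adjusted p 0.0631). Every gene of the thermogenic list was above 0 in this comparison, 6 of 6, with a median of 2.51, and 4 were called, against 17.4% of all genes. Summed over that list, levels were 38.9 to 174.4 CPM in Y665H and 11.6 to 22.4 CPM in Y665F females. The muscle list was also above 0 for 13 of 13 genes, 8 of them called (median 4.95, summed levels of 55.7 to 2075 and 69.95 to 199.3 CPM). The lists of T and NK cells (7 genes, 4 called) and B cells (6 genes, 5 called) were below 0 for every gene. So were all 8 macrophage genes, 5 of them called, and 8 of 9 epithelium genes, 0 of them called. With the muscle markers as a covariate, Plin5 was at 2.17 (edgeR adjusted p 0.0170) and Plin2 at 0.80 (edgeR adjusted p 0.0209). The part of these other cells in the differences of Plin2, Plin5 and Abhd5 was not tested.

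Plin3, which coats droplets in most cells, was also without overlap here, which makes 4 of 10, against 28.1% of all genes, at 67.2 to 73.9 CPM in Y665H and 75.6 to 84.3 CPM in Y665F females. Its fitted log2 fold change was nonetheless -0.04 under TMM scaling (SE 0.07, edgeR adjusted p 0.720) and -0.19 under scaling by library totals (edgeR adjusted p 0.0653). That scaling moved the median of all genes by -0.15 in this comparison and by 0.13 in Y665F against WT females, so fold changes are relative to TMM. The lipase genes Lipe (0.65, SE 0.26) and Pnpla2 (0.50, SE 0.20) had edgeR adjusted p of 0.119 and 0.118. Plin1 (0.44), Cidec (0.45), G0s2 (0.43) and Plin4 (0.12) had edgeR adjusted p of 0.176 to 0.795. DESeq2 called 5 of the 10 genes, adding Pnpla2 and Lipe, and 22.9% of all genes.

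In males no gene of the set was called in any comparison of genotypes. Called shares of all genes were 0% for Y665F against WT, 0% for Y665H against WT and 1.03% for Y665H against Y665F. Without WT male 1, 3.43% of all genes were called in Y665F against WT, and without Y665F male 3 the share in Y665H against Y665F was 0.0613%. An unadjusted p under 0.05 was reached by 1, 0 and 2 of the 10 genes in these comparisons, against 17.1%, 11.4% and 18% of all genes. Plin5 again stood lowest in Y665F, at 5.68, 5.10, 6.10 and 9.69 CPM in Y665F males and 7.86, 12.9, 15.6 and 12.8 CPM in WT males. The groups overlapped through Y665F male 4 and WT male 1, and none of the 10 genes was without overlap, against 8.85% of all genes. The log2 fold change of Plin5 was -0.85 (SE 0.26, edgeR unadjusted p 0.0106, edgeR adjusted p 0.233). DESeq2 and the fit over all 24 libraries called it (adjusted p 0.0352 and 0.0469), where they called 7.01% and 13.2% of all genes.

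The other 9 genes lay between -0.20 and 0.38 in Y665F against WT males. Y665H males had log2 fold changes against WT from -0.30 for Plin5 to 0.56 for Plin4, with 9 of 10 above 0 (Plin3 lay below 0 under library totals) and edgeR adjusted p of 0.402 to 0.948. With the adipocyte covariate, and with the epididymis covariate, Plin1, Plin2, G0s2, Abhd5, Pnpla2 and Lipe lay below 0. Plin4 was at 3608, 4360, 3691 and 5197 CPM in Y665H males and at 3607, 1660, 3435 and 2734 CPM in WT males. It was the 1 gene of 10 without overlap, by the narrowest of margins, against 3.6% of all genes. Its difference was 0.56 (SE 0.30, edgeR adjusted p 0.402) and 0.49 (SE 0.20, edgeR adjusted p 0.246) against Y665F males. WT male 2, with its low adipocyte and high epididymis markers, was the lowest WT male for Plin1, Plin2, Plin4, Cidec, G0s2, Abhd5, Pnpla2 and Lipe and the highest for Plin3, and the part of this tissue in the comparisons with WT males was not tested.

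WT males were below WT females in all 10 fitted values (Plin3 and Plin5 lay above 0 under library totals), with a median log2 fold change of -0.61 against 0.04 over all genes, and 0 of 10 were called against 13.1% of all genes. With the adipocyte covariate Plin1, Plin4, G0s2, Abhd5 and Lipe lay above 0, and with the epididymis covariate Plin1, Plin4, Abhd5 and Lipe did. The share of all genes ran from 1.52% without WT female 4 to 30.7% without WT male 1, and 3 of the 10 genes had an unadjusted p under 0.05, against 33.5% of all genes. Plin2 had the largest difference, at 240.0, 92.6, 185.3 and 254.8 CPM in males and 313.3, 485.1, 395.4 and 295.2 CPM in females, with -1.10 as log2 fold change (SE 0.32, edgeR adjusted p 0.0546). Plin2 and Cidec did not overlap between the sexes, 2 of 10 against 25.2% of all genes. Plin2 was called without WT male 2 (-0.87, edgeR adjusted p 0.0445) and without WT male 1 (-1.25, edgeR adjusted p 0.0360), while Plin5 was at 12.3 ± 3.24 CPM in WT males and 11.2 ± 1.47 CPM in WT females. The adipocyte list was also lower in WT males, 11 of 11 genes with a median of -0.74, none of them called. Called lower in WT males were 11 of 13 muscle genes (median -5.27), 5 of 7 progenitor and fibroblast genes (median -1.12) and 4 of 5 thermogenic genes tested (median -2.13). Called higher were 4 of 9 epithelium genes (median 4.20) and both epididymis genes tested, a list with summed levels of 1.24 to 13722 CPM in WT males and 0.511 to 1.04 CPM in WT females. The part of these cells in the differences of the 10 genes was not tested.

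The effect of each mutation was compared between males and females by an interaction term. It passed for 0 of the 10 genes with Y665F, where 0% of all genes passed, and for 0 with Y665H, where 0.0119% did. Without WT male 1 these shares were 9.84% and 10.7%. An unadjusted p under 0.05 was reached by 1 gene in each, against 21.8% and 18.3% of all genes. For Y665F all 10 interaction terms were above 0 (male minus female; Plin3 lay below 0 under library totals, and Abhd5 and Pnpla2 with the adipocyte or the epididymis covariate), from 0.17 for Plin3 to 0.95 for G0s2, the smallest edgeR adjusted p being 0.188 for Lipe. For Plin5 the term was 0.32 (SE 0.30, edgeR adjusted p 0.539) with Y665F and -0.76 (SE 0.41, edgeR adjusted p 0.331) with Y665H. The Y665F differences of Plin5 in females and males are thus not shown to differ. Ordered by mean CPM, Plin5 ran from Y665H females (15.0) through WT males (12.3), WT females (11.2) and Y665H males (9.92) to Y665F males (6.64) and Y665F females (5.43). Each neighbouring pair in this order differed by less than the larger SD of the pair, except Y665H and Y665F males.

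Ratios within a library do not depend on scaling, and 4 were compared in 6 comparisons of genotypes with an exact two-sided permutation test, whose smallest possible p is 0.0286. None of the 24 passed, with a lowest exact p of 0.0571 and a lowest adjusted p of 0.411. A lone ratio at the smallest possible p would not pass the adjustment over 24 tests. A lack of passing ratios is therefore not read as a lack of differences. The ratio of activator to lipase, Abhd5 to Pnpla2, was 6.00, 6.41, 9.70 and 10.2 counts per 100 in Y665H females and 5.27, 5.86, 6.02 and 5.95 in Y665F females, a log2 difference of 0.44 (SE 0.20, exact p 0.0571). Y665H females 3 and 4 were the high ones, where Plin5 was low. WT female 2 was similarly high, at 9.74, and Y665H against WT females gave a log2 difference of 0.26 (SE 0.27, exact p 0.200). In males the same ratio had a log2 difference of -0.26 in Y665F against WT (exact p 0.0571) and of -0.30 in Y665H against WT (exact p 0.0857). The ratio of inhibitor to lipase, G0s2 to Pnpla2, had geometric means of 7.66 per 100 in Y665F and 9.90 in WT females (exact p 0.0571). WT female 2 was at 13.7 and the other WT females at 8.36 to 9.24. Leaving out 1 library gave log2 differences from -0.45 to -0.21. The ratio of Lipe to Pnpla2 ran from 24.0 to 34.1 in Y665F and from 33.3 to 55.1 in WT females, with an exact p of 0.0857. The 55.1 was again WT female 2, with the other WT females at 33.3 to 35.6. Plin2 to Plin1 gave exact p of 0.543 to 0.886 in the 6 comparisons.

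Over the 24 libraries, with group means removed, most of the set rose and fell together. Pearson r of log2(CPM + 1) was 0.90 for Cidec with Lipe, 0.89 for Cidec with Pnpla2, 0.89 for Plin1 with G0s2 and 0.87 for Plin4 with Cidec. The libraries share tissue makeup, so these values carry no test. Plin1 had r = 0.95 and G0s2 r = 0.92 with the adipocyte list. Without WT male 2 and Y665F female 3, the values were 0.82 for Cidec with Lipe, 0.81 for Cidec with Pnpla2, 0.65 for Plin1 with G0s2, 0.78 for Plin4 with Cidec, and 0.81 and 0.76 for Plin1 and G0s2 with the adipocyte list. The value of Plin4 with Abhd5, 0.38 in all libraries, became -0.23. Other pairs also fell: Plin1 with Abhd5 from 0.75 to 0.20, G0s2 with Pnpla2 from 0.67 to 0.15, and Abhd5 with Lipe from 0.56 to 0.03. Plin2 went from 0.35 to -0.14 with Cidec and from 0.50 to -0.05 with Pnpla2.

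In all 24 libraries, Plin3 and Plin5 stood outside this pattern. Plin3 had r = -0.71 with Abhd5 and -0.49 with the adipocyte list, values that were -0.33 and 0.11 without those 2 libraries. Plin5 had r = -0.35 with the adipocyte list, -0.25 with the muscle list and 0.68 with the thermogenic list. Without Y665H females 1 and 2, the r of Plin5 was 0.24 with the thermogenic list, 0.29 with the muscle list and -0.46 with the adipocyte list.

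**Figure D3:**
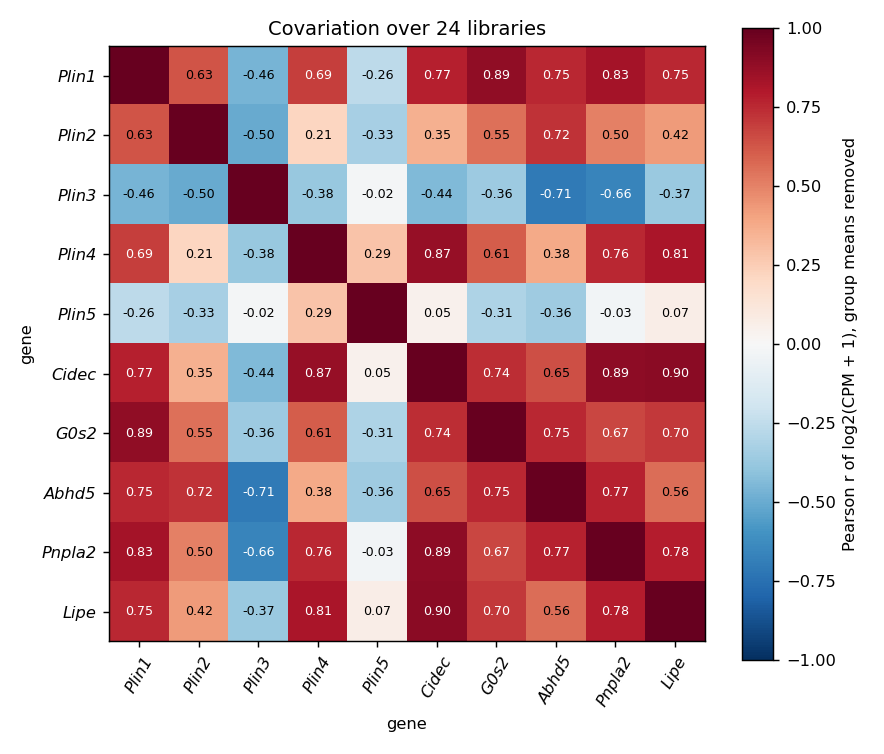
Pearson r of log2(CPM + 1) between each pair of the 10 genes over 24 libraries after removing group means (colour and printed value, from -1 to 1). Plin1, Plin4, Cidec, G0s2, Abhd5, Pnpla2 and Lipe form a positive block, from 0.38 to 0.90, while Plin3 is negative with all other genes in these 24 libraries.

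**Figure D4:**
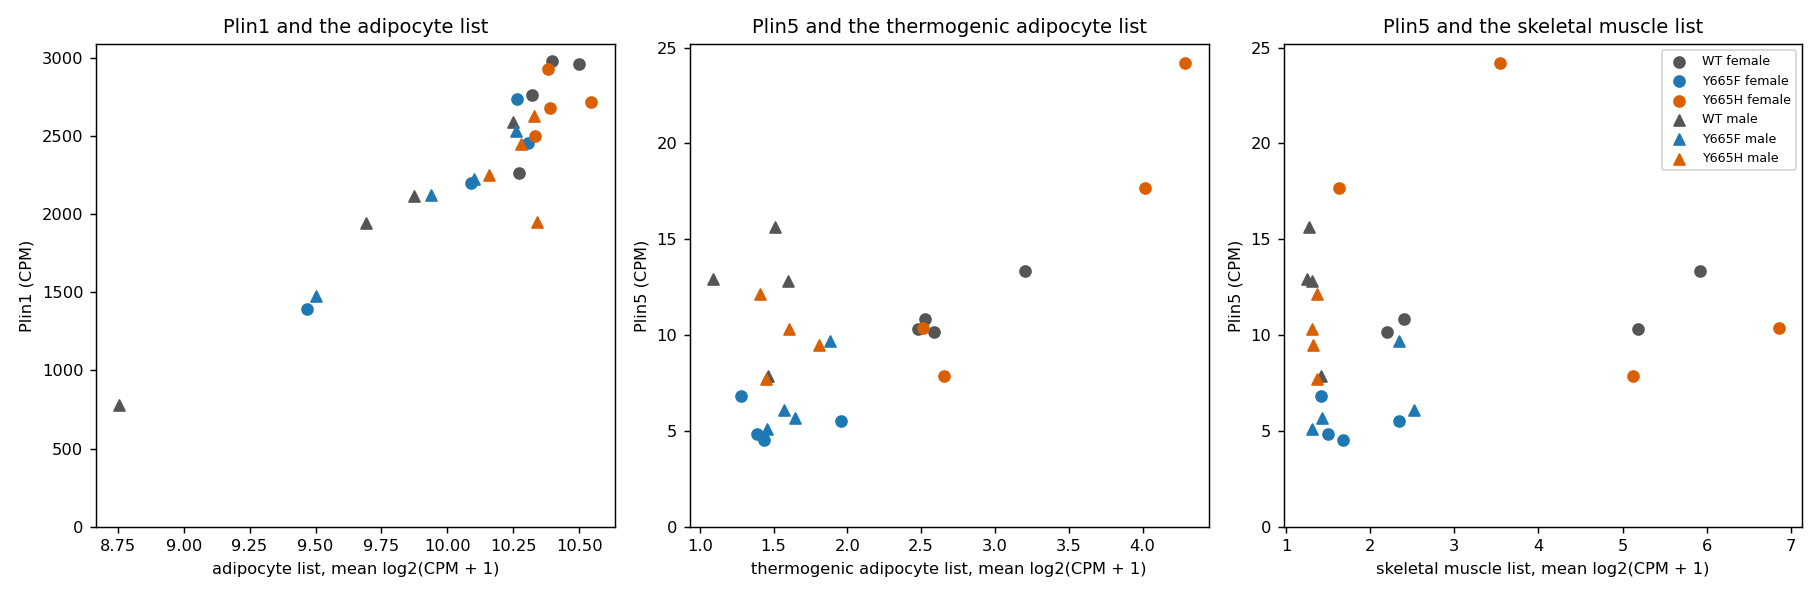
Plin1 against the adipocyte list (left) and Plin5 against the thermogenic adipocyte (middle) and skeletal muscle (right) lists, 1 point per library, with gene levels in CPM and list levels as mean log2(CPM + 1). Plin1 falls with the adipocyte list to WT male 2, and Y665H females 1 and 2 stand highest for Plin5 and the thermogenic list.

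The genes most like 5 members were sought among 14828 genes by the same group-centred r. Plin1 was followed most closely by Cebpa (0.97), a transcription factor of fat cells, then Ywhag (0.94) and Carhsp1 (0.94). Plin5 was followed by Slc25a42 (0.83), a mitochondrial carrier of coenzyme A, Bcat1 (0.82) and Aldh16a1 (0.82). For Pnpla2 they were Abcb1b (0.93), Tbc1d20 (0.93) and the fatty acid binding protein gene Fabp4 (0.92), for Lipe C030006K11Rik (0.96), the kinase gene Sik2 (0.95) and Tspo (0.95), and for Plin2 Gfm1 (0.88), Pfkp (0.85) and Stom (0.85). With group means kept, r was -0.04 for Plin5 with Aldh16a1, 0.40 for Plin5 with Bcat1 and 0.08 for Pnpla2 with Tbc1d20. The other genes named here had 0.62 to 0.94. All these values include the libraries that stood apart.

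A further 19 genes of droplets and lipolysis were read from the same fits. In Y665F against WT females 17 could be tested and 1 was called, Cidea, lower, against 3.33% of all genes. Of the 17, 11 were below 0, with a median of -0.32. Cidea was at 9.68, 19.6, 22.7 and 23.7 CPM in WT and at 0.403, 0.917, 3.06 and 1.73 CPM in Y665F females, without overlap, and the log2 fold change was -3.78 (SE 0.56, edgeR adjusted p 0.0171). In Y665H against Y665F females 16 could be tested, where 17.4% of all genes were called. The count of 4 called in 16 is not read as a result of this list. All 4 were higher. They were Cidea (4.10, SE 0.73), the seipin gene Bscl2, needed to form droplets (0.94, SE 0.18), Fitm2, of droplet budding (0.72, SE 0.18), and Mgll, the lipase of the last step (0.73, SE 0.21), with edgeR adjusted p of 0.00793, 0.00961, 0.0287 and 0.0428. The calls of Fitm2 and Mgll were each lost without Y665F female 1 or 4 or Y665H female 1, 2 or 3, with edgeR adjusted p up to 0.0800 for Fitm2 and 0.104 for Mgll. Neither was called with the adipocyte covariate (0.44 for Fitm2 and 0.38 for Mgll).

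Cidea was no longer called with the thermogenic covariate, which gave -1.88 in the first of these comparisons and 1.35 in the second. In the first, it also lost its call with the muscle covariate (edgeR adjusted p 0.0809) and without WT female 2 (edgeR adjusted p 0.0536), WT female 4 (edgeR adjusted p 0.0523) or Y665F female 4 (edgeR adjusted p 0.0681). In males Cidea was at 1.75 ± 0.657 CPM in WT, below WT females (-3.59, SE 0.37, edgeR adjusted p 0.00299). It was the 1 called gene of 17 tested in that comparison, against 13.1% of all genes. None of the 18 tested in Y665H against WT females was called, against 3.34% of all genes. Nor was any in the 3 comparisons of males or the interactions, whose shares of all genes are given above. The smallest p in Y665H against WT females were those of Hsd17b11 (0.43, edgeR adjusted p 0.115) and Rab18 (0.36, edgeR adjusted p 0.227).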

How the data were processed

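Total RNA of adipose tissue was depleted of ribosomal RNA and sequenced as stranded read pairs, per the labels' protocols. The authors deposited 1 file of raw read counts per gene symbol for each library. The submitters' processing notes name FastQC 0.11.9, Trimmomatic 0.36, STAR, SAMtools 1.9, Picard 2.9.2, HTSeq 0.9.1 and the mouse build mm10, the same build as GRCm38. The annotation and strand setting are not given in the sources used here. In each file 5 entries name no gene and hold 24.8 to 39.7% of all counts, and they were left out of depth and tests.

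CPM are counts per 1000000 gene counts of the library. Exon length was the union of the exons of GENCODE M21. Counts were tested with the quasi-likelihood test of edgeR 4.0.16 (R 4.3.3, limma 3.58.1), with TMM scaling, filterByExpr and Benjamini-Hochberg adjustment over all genes tested. Genes are termed called at an adjusted p under 0.05. Each comparison was fitted on its 8 libraries, and each sex interaction on 16. Standard errors are the fold change divided by the root of F. The alternatives were DESeq2 size factors, library totals, no filter, the DESeq2 1.42.0 Wald test, a fit over all 24 libraries, a replicate block, leaving out each library, and marker lists as covariates (mean log2(CPM + 1), pseudocount 1). The edgeR fit was tested on simulated data with known fold changes. No 2 libraries of a group agreed within sampling noise, and the lowest chi-square per degree of freedom was 16.4. The 10 genes and all lists were chosen with earlier results of these data known. The text names all 10 genes, the called genes of the wider list, or else the 2 with the smallest p in a comparison it describes, and the 3 genes most like each of 5 members with a mean of at least 1 CPM. The TATAA and CCAAT motifs and the correlations with libraries left out were added after the data were examined.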

Additional observations from a re-analysis of the deposited data

Results flagged for a closer look

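Among the 60 sets of 4 libraries (10 genes in 6 groups), 3 had 1 library far from the other 3 by Dixon's criterion, which compares its gap with the whole range. Chance gives about 1 in 20 sets, or 3 of these 60. Cidec was at 950.0 CPM in WT male 2, against 1850 to 1863 CPM in the other WT males. It was at 1309 CPM in Y665F female 3, against 1883 to 1968 CPM in the other Y665F females. Both are the libraries with the lowest adipocyte markers, 8.76 and 9.47 as mean log2(CPM + 1), and the part of this in the Cidec levels was not tested. Lipe was at 757.7 CPM in WT female 3, against 867.6 to 879.4 CPM in the other WT females. The adipocyte level of WT female 3, 10.50, was the highest of its group.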

How the results depend on the processing

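Counts of called genes kept within 1.5 times their first value under the alternative scalings (DESeq2 size factors or library totals) and without the filter on low counts. In Y665F against WT females the count of 1 became 5 with DESeq2 (12% of all genes) and 2 with the replicate block (Plin5 and Abhd5, 4.32%). With the muscle or the thermogenic covariate it became 0 (0% of all genes with each). It ran from 0 to 2 when single libraries were left out (0.424% to 4.75% of all genes). In Y665F against WT males the 0 became 1 (Plin5) with DESeq2 (7.01% of all genes) and with the fit over all 24 libraries (13.2%). In Y665H against WT females the 0 became 1 (Abhd5) with DESeq2 (11.5%) and with the thermogenic covariate (5.48%). In Y665H against Y665F females the 3 became 5 with DESeq2 (22.9%), 1 (Abhd5) with the thermogenic covariate (1%) and 1 (Abhd5) without Y665H females 1 and 2 (7.57%). It became 2 with the adipocyte covariate (without Plin5, 10.1% of all genes) and 2 with the fit over all 24 libraries (without Plin2, 12.6%). The count stayed 3 in each of the 8 fits without 1 library, where 9.89% to 18.1% of all genes were called. In WT males against WT females the 0 became 3 with DESeq2 (24.5%) and 3 with the fit over all 24 libraries (34.9%), Plin2, Cidec and Pnpla2 in both. It ran from 0 to 1 (Plin2) without single libraries (1.52% to 30.7% of all genes). Of the 60 fold changes fitted with the muscle covariate, 2 lost their call and 1 gained a call. The thermogenic and epithelium covariates and the omission of Y665H females 1 and 2 were chosen after seeing the data.

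Among fold changes, no called one changed direction, and 77 values that were not called did. The largest of these was 0.55 in size on the log2 scale, all were without a call under the alternative too, and the cause was not tested. With the adipocyte covariate, 31 of 90 changed sign. Plin1 was -0.0608, Plin4 -0.14, Cidec -0.16, Pnpla2 -0.17 and Lipe -0.00266 in Y665F against WT males. Lipe was 0.00290 in Y665H against WT females. Plin1 was -0.32, Plin2 -0.23, G0s2 -0.34, Abhd5 -0.55, Pnpla2 -0.17 and Lipe -0.21 in Y665H against WT males. Plin4 was -0.10 in Y665H against Y665F females. Plin1 was -0.23, Plin2 -0.31, Cidec -0.0272, Abhd5 -0.0780, Pnpla2 -0.0853 and Lipe -0.31 in Y665H against Y665F males. Plin1 was 0.0714, Plin4 0.18, G0s2 0.0944, Abhd5 0.0367 and Lipe 0.15 in WT males against WT females. Abhd5 was -0.29 and Pnpla2 -0.20 in the sex interaction of Y665F. Plin1 was -0.25, Plin2 -0.29, G0s2 -0.11, Pnpla2 -0.37 and Lipe -0.0915 in the sex interaction of Y665H. With the epididymis covariate, 25 of 60 did. Plin1 was -0.34, Plin2 -0.15, Plin4 -0.37, Cidec -0.31, G0s2 -0.0600, Pnpla2 -0.43 and Lipe -0.18 in Y665F against WT males. Plin1 was -0.22, Plin2 -0.19, Plin5 0.0501, G0s2 -0.18, Abhd5 -0.45, Pnpla2 -0.0584 and Lipe -0.0739 in Y665H against WT males. Plin1 was 0.00697, Plin4 0.0979, Abhd5 0.0706 and Lipe 0.0762 in WT males against WT females. Abhd5 was -0.29 and Pnpla2 -0.17 in the sex interaction of Y665F. Plin1 was -0.21, Plin2 -0.35, G0s2 -0.0350, Pnpla2 -0.29 and Lipe -0.0368 in the sex interaction of Y665H. Under library totals, 8 of 90 did. Plin3 was 0.00725 in Y665F against WT females. Plin3 was -0.0151 in Y665F against WT males. Plin3 was -0.00379 in Y665H against WT males. Plin4 was -0.0290 in Y665H against Y665F females. Plin3 was 0.00965 in Y665H against Y665F males. Plin3 was 0.0901 and Plin5 0.17 in WT males against WT females. Plin3 was -0.0196 in the sex interaction of Y665F. Plin1 in Y665H against WT females, at -0.00053, was 0.000759 without the filter, 0.000651 with the DESeq2 Wald test, 0.00491 with the fit over all 24 libraries, 0.00317 with the replicate block, 0.000173 with the skeletal muscle covariate and 0.0278 with the epithelium covariate. With the skeletal muscle covariate, Plin3 was 0.0368 in Y665H against Y665F females and Plin5 was 0.12 in WT males against WT females. With the epithelium covariate, Plin4 was -0.14 in Y665H against Y665F females. With the thermogenic adipocyte covariate, Plin5 was -0.18 in Y665H against WT females and Plin4 was -0.47 in Y665H against Y665F females. Without Y665H females 1 and 2, Plin5 was -0.31 in Y665H against WT females and Plin4 was -0.27 in Y665H against Y665F females. 

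Leaving out 1 library at a time changed the sign of the values whose ranges follow, none of them called. Plin1 ran from -0.0172 to 0.46, Plin3 -0.0301 to 0.21, Plin4 -0.10 to 0.23, Cidec -0.10 to 0.29, Abhd5 -0.43 to 0.0135 and Pnpla2 -0.10 to 0.29 in Y665F against WT males. Plin1 ran from -0.0740 to 0.0469 and Lipe -0.22 to 0.0982 in Y665H against WT females. Plin3 ran from -0.0668 to 0.18 and Abhd5 -0.18 to 0.26 in Y665H against WT males. Plin3 ran from -0.0683 to 0.0164 and Plin4 -0.0521 to 0.29 in Y665H against Y665F females. Plin1 ran from -0.0546 to 0.22, Plin2 -0.16 to 0.15, Plin3 -0.14 to 0.0485, G0s2 -0.21 to 0.10 and Lipe -0.0751 to 0.24 in Y665H against Y665F males. Plin3 ran from -0.24 to 0.0120 and Plin5 -0.16 to 0.13 in WT males against WT females. Abhd5 ran from -0.0167 to 0.42 in the sex interaction of Y665F. Plin2 ran from -0.0782 to 0.33 and Pnpla2 -0.0780 to 0.30 in the sex interaction of Y665H. The log2 differences of ratios changed sign in 22 of 192 such values. The lowest exact p of the 192 was 0.0571, the smallest that the test allows with 1 library left out. G0s2 to Pnpla2 ran from -0.21 to 0.11 and Plin2 to Plin1 -0.14 to 0.0517 in Y665H against WT males. G0s2 to Pnpla2 ran from -0.13 to 0.19 in Y665H against Y665F females. Abhd5 to Pnpla2 ran from -0.26 to 0.00353 and Plin2 to Plin1 -0.13 to 0.30 in Y665F against WT females. Abhd5 to Pnpla2 ran from -0.15 to 0.0225 and Plin2 to Plin1 -0.14 to 0.0151 in Y665H against Y665F males. Lipe to Pnpla2 ran from -0.0361 to 0.17 and Plin2 to Plin1 -0.0644 to 0.13 in Y665F against WT males. 

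Replicate numbers are shared between groups, but same-numbered libraries did not deviate together: r of their deviations from the group means ran from -0.37 to 0.72, no comparison had every pair over 0.1, and 0 to 3 of 4 libraries correlated best with their own number. The replicate block added the call of Abhd5 in Y665F against WT females (-0.44, edgeR adjusted p 0.0490) to that of Plin5 (-1.18, edgeR adjusted p 0.0394), where 4.32% of all genes were called, and it changed no other call of the 10 genes. Depth limits Plin5 most, whose lowest count was 128.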
